A study of Homo sapiens with 11 samples.

Results

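The gene expression of uninduced Z138 cells was described from the 3 uninduced RNA libraries, chosen by their label, out of 9 RNA libraries and 11 samples in the series. Z138 is an established line of human mantle cell lymphoma. The cells were clone 7, made by transducing the line with Cas9 joined to a red fluorescent protein (CAS9-RFP) and 2 guides against the DNA methyltransferase DNMT3A, all switched on by doxycycline. The uninduced libraries carried these constructs, were labelled as having no treatment, and all came from that 1 clone, so they describe neither the parental line nor the disease at large. Per the series design, replicates were separately frozen vials used on different days, with the RNA of 2 technical duplicates pooled for each. The induced libraries were not compared here. Poly(A) RNA was sequenced with a stranded kit, and the authors deposited the level of each gene as TPM, a share of the library's transcripts that is corrected for gene length and scaled to a total of 1000000, which allows levels of different genes to be set side by side.

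Mantle cell lymphoma is a cancer of mature B cells that usually carries a translocation placing the cyclin D1 gene CCND1, silent in normal B cells, beside the immunoglobulin heavy chain enhancer. Cyclin D1 drives entry into the cell cycle together with the kinases CDK4 and CDK6. The tumour cells keep a B cell identity, set by transcription factors such as PAX5, and depend on signals of the B cell receptor passed on by the kinase BTK, and most cases express the neural transcription factor SOX11.

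All 4 genes that mark these cells were found in every library. CCND1 stood at 1105, 1095 and 1132 TPM in replicates 1, 2 and 3, BTK at 97.7, 111 and 106 TPM, SOX11 at 40.97, 25.4 and 35.4 TPM and PAX5 at 18.7, 34.5 and 21.3 TPM. CCND1 lay above BTK and BTK above the other pair in each library. The ranges of SOX11 and PAX5 overlapped, so their order was not fixed: SOX11 was the higher in replicates 1 and 3 and PAX5 in replicate 2. Among rows with a mean of at least 1 TPM, CCND1 exceeded 98.99% in level, BTK 90.9%, SOX11 71.8% and PAX5 64.3%. In a bulk library, fewer cells expressing a gene and less RNA per cell cannot be told apart.

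With a fixed total, sequencing depth is unknown and a value of 0 is given as listed at 0. Replicate 2 stood somewhat apart. Pearson's r of log2(TPM + 1) across the 14507 rows with a mean of at least 1 TPM was 0.962 between replicates 1 and 2, 0.968 between 2 and 3, and 0.972 between 1 and 3. These are correlations across genes, which are not independent replicates. Gene groups that differed by library are described at the end.

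The ranking by abundance was steep. Of 60656 rows in the table, 34410 (56.7%) were listed at 0 in all 3 libraries and 11739 had a mean above 0 and below 1 TPM. A mean of 1 to 10 TPM was found for 6080 rows, 10 to 100 for 7042, and 100 to 1000 for 1223. The 162 rows at 1000 TPM or more were 0.267% of rows and held 42.7%, 41.7% and 44.4% of all TPM in replicates 1, 2 and 3. The 10 most abundant rows held 7.51 ± 0.397% (SD, n = 3), the top 100 held 34.6 ± 1.33% and the top 1000 held 68.9 ± 0.723%. The share of the top 100 was lowest in replicate 2 (33.3%) and highest in replicate 3 (35.98%). Rows matched to protein-coding genes carried 81.02% of TPM, and 55.0% of those 18941 rows reached a mean of 1 TPM. Rows named as pseudogenes carried 9.55%, and 10.01% of them reached 1 TPM.

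**Figure D1:**
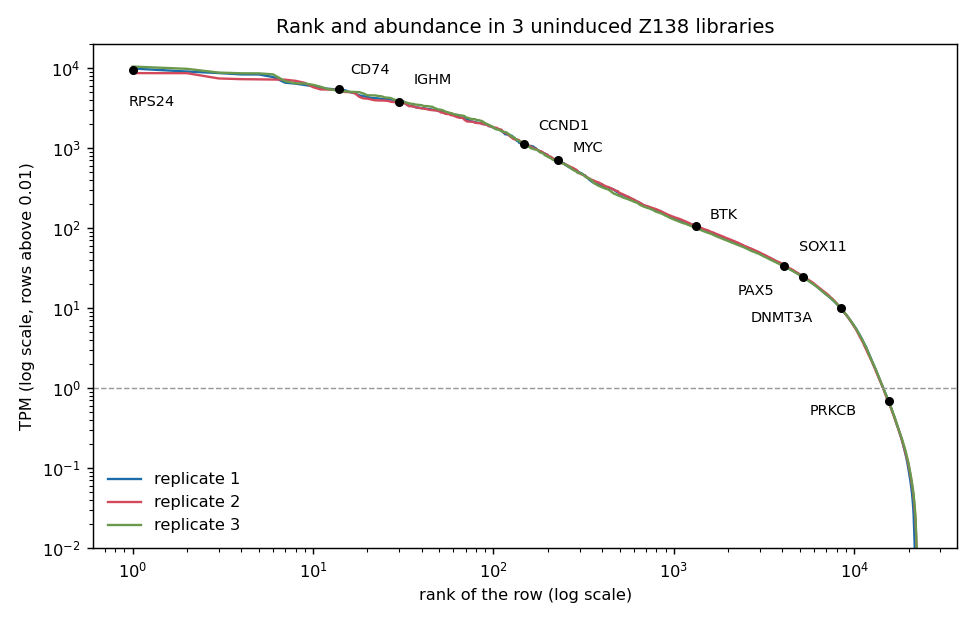
TPM (y axis, log scale) against the rank of the row (x axis, log scale), 1 line for each of the 3 uninduced libraries, with black dots at the mean of named genes and a dashed line at 1 TPM. The 3 lines nearly coincide, and CCND1 at 1111 TPM lies far above BTK, SOX11 and PAX5 on the slope.

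Genes of protein synthesis filled the top of the ranking. The highest row was RPS24, a protein of the small ribosomal subunit, at 9873, 8646 and 9783 TPM, followed by RPS18, of the same subunit, at 9054, 8636 and 10445 TPM. RPS27 stood at 7729, 7227 and 8783 TPM and the elongation factor EEF1A1, which brings aminoacyl-tRNA to the ribosome, at 8662, 6529 and 8346 TPM. EEF1A1 was lowest in replicate 2, while RPS18 and RPS27 were highest in replicate 3. Of the 100 most abundant rows, 60 were cytosolic ribosomal proteins, 8 were other listed translation factors, 6 were pseudogenes of either, 4 were immunoglobulin rows and 2 were nuclear copies of mitochondrial genes. Together the 86 rows named as cytosolic ribosomal proteins took 22.8%, 22.1% and 24.9% of TPM in replicates 1, 2 and 3, with 71 of them at 1000 TPM or more.

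Outside translation, the highest rows were PTMA, a nuclear protein linked to proliferation, at 6564, 7264 and 5846 TPM, and the glycolytic enzyme GAPDH at 5293, 7414 and 5052 TPM. CD74, the invariant chain that guides HLA class II molecules to the compartment where they take up peptide, followed at 4854, 6924 and 4815 TPM. TMSB10, which binds actin monomers, stood at 4463, 5021 and 4043 TPM. GAPDH, CD74, PTMA and TMSB10 were all highest in replicate 2. The rest of the 30 most abundant rows were 16 further ribosomal protein genes, between 3833 and 5752 TPM, the immunoglobulin rows IGLV1-51 and IGHM, and rows of near-identical copies.

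Several levels in this range rest on how reads were shared between copies. RPL41P1, a pseudogene, stood at 8335, 7214 and 8607 TPM, and the row AC090498.1 matched it closely in each library at 8319.5, 7162 and 8591 TPM. The pseudogenes EEF1A1P5 and EEF1A1P6 stood at 6215 ± 735 TPM and 3878 ± 489 TPM (SD, n = 3). EEF1A1 summed with its 39 pseudogene rows came to 20676, 16705 and 21161 TPM. Pseudogenes named for ribosomal proteins took 5.88 ± 0.335% of TPM, and 300 of 1238 such rows reached 1 TPM. A few true ribosomal protein genes were low: RPS26, part of every small subunit, stood at 48.8, 43.2 and 50.9 TPM, against a median of 2523 TPM over the 86 rows. How much of these levels belongs to the named gene was not tested. The testis paralogue RPL10L was listed at 0 and the muscle paralogue RPL3L at a mean of 0.0267 TPM.

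Messages for ribosomal proteins and elongation factors are known for a tract of pyrimidines that begins with a C at the start of the transcript, the terminal oligopyrimidine or TOP motif, through which mTOR controls their translation. The start sites of highly abundant genes are shown because this tract was found in 51.5% of promoters of genes at 1000 TPM or more, against 4.66% of all. They are the 6 most abundant genes with the tract and the 4 most abundant without it. Each stretch runs from 40 bases before to 10 bases after the annotated start (RefSeq, GRCh38.p14). Capitals mark a C at the start with the unbroken C or T run that follows it, where that run has at least 4 bases.
RPS24 chr10:78033823-78033872 plus strand: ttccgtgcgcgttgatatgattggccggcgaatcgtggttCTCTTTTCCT
RPS18 chr6:33272035-33272084 plus strand: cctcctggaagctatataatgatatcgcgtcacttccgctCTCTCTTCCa
RPS27 chr1:153990722-153990771 plus strand: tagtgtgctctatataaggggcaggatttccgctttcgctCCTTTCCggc
EEF1A1 chr6:73521023-73521072 minus strand: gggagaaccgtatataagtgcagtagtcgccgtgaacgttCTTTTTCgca
PTMA chr2:231708485-231708534 plus strand: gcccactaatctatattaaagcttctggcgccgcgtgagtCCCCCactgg
RPLP0 chr12:120201102-120201151 minus strand: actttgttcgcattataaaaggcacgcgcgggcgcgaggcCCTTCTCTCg
GAPDH chr12:6535224-6535273 plus strand: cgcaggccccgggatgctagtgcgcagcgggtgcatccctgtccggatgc
CD74 chr5:150412901-150412950 minus strand: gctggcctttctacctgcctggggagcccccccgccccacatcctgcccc
RPL3 chr22:39319614-39319663 minus strand: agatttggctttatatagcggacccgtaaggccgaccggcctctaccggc
TMSB10 chr2:84905616-84905665 plus strand: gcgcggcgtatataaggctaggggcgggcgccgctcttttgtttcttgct
The runs of the 4 ribosomal protein genes and EEF1A1 had 7 to 10 such bases within the stretch shown, and that of PTMA had 5. The starts given for GAPDH, CD74 and TMSB10 were not a C. That of RPL3 was a C with a shorter run, fewer than 4 C or T after it. With this minimum the tract did not fully divide genes of translation from others, as PTMA had it and RPL3 did not. Of the 30 most abundant rows, 20 had a promoter in the RefSeq table, and 13 of these began with such a tract. Besides RPL3, the ribosomal protein genes RPL19, RPL6 and RPS7 did not at their first listed start.

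A C at the start followed by at least 4 C or T was found in 4.66% of 15126 protein-coding promoters, taking the first start listed for each gene. The share was 2.76% for the 4415 genes listed at 0, 4.03% above 0 and below 1 TPM, 3.85% at 1 to 10, 4.99% at 10 to 100, 10.8% at 100 to 1000 and 51.5% for the 97 genes at 1000 TPM or more. Ribosomal proteins carried it in 44 of 69 cases and the listed translation factors in 9 of 11, among them RACK1, NACA, EEF2, FAU and NPM1. With ribosomal proteins left out, 11 of 40 genes at 1000 TPM or more (27.5%) still carried it. Promoters also differed in CpG content, the observed over the expected number of CpG pairs, which is high in the CpG islands of broadly used genes. The median ratio was 0.384 for genes listed at 0, 0.601 below 1 TPM, 0.817 at 1 to 10, 0.867 at 10 to 100, 0.875 at 100 to 1000 and 0.889 at 1000 TPM or more. A ratio of at least 0.6 was found in 92.8% of promoters at 1000 TPM or more and in 66.6% of all. The TATA box, searched as TATAAA with its first base 45 to 21 bases before the start, was found in 7.63% of promoters of genes listed at 0, 4.61% above 0 and below 1 TPM, 2.36% at 1 to 10, 0.913% at 10 to 100, 2.93% at 100 to 1000 and 3.09% at 1000 TPM or more. Its share was thus lowest in the middle of the range. A match is a description of these letters and not a site in use.

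**Figure D2:**
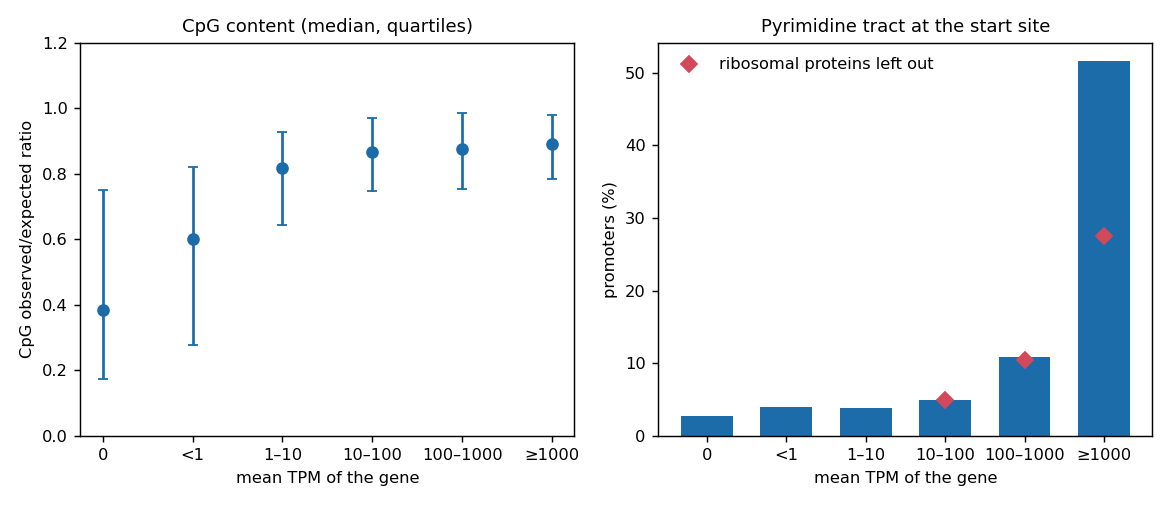
Protein-coding promoters by the gene's mean TPM (x axis). Left, the CpG observed over expected ratio, points for medians and bars for quartiles; right, the percentage with a C and at least 4 C or T at the start site, with red diamonds for the 3 highest classes without ribosomal proteins. The CpG ratio is lowest for genes listed at 0, and the pyrimidine tract is most frequent, 51.5%, at 1000 TPM or more.

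B cell surface and HLA class II genes had promoters low in CpG. The median CpG ratio was 0.353 for 29 promoters of B cell surface molecules and 0.230 for 14 of HLA class II genes and regulators, against 0.841 for 23 of B cell transcription factors and 0.923 for 20 of proliferation genes. Low ratios were not particular to expressed B cell genes: marker lists at or near 0 had medians of 0.269 for T and NK cells, 0.211 for myeloid cells and 0.180 for erythroid cells and megakaryocytes. CD74, at 5531 TPM, had a ratio of 0.136. The octamer, ATTTGCAT or ATGCAAAT on the other strand, is the site through which OCT2 and its B cell coactivator act on immunoglobulin promoters. It was found within 250 bases before to 50 after the start in 1.70% of all protein-coding promoters. Of 311 promoters of listed genes, 7 (2.25%) held it, a share near that of all promoters: MEF2B, IL4R, CR1, PRKCB, VPREB3, PIM2 and SERPINA9. VPREB3, an endoplasmic reticulum protein that binds immunoglobulin chains in B cells, is shown with the octamer in capitals.
VPREB3 chr22:23754445-23754492 minus strand: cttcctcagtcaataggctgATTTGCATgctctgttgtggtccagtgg
That gene stood at 52.1, 92.4 and 134 TPM, with replicate 1 lowest and replicate 3 highest, while CR1 and SERPINA9, which hold the same letters, were listed at 0.

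Of 30 mantle cell lymphoma hallmark genes, 27 had a mean of at least 1 TPM, 24 of at least 10 and 11 of at least 100, and 3 were listed at 0. CCND1 (chr11:69641156-69654474) was the highest, with a mean of 1111 ± 19.3 TPM (SD, n = 3). Its coefficient of variation over the 3 libraries was 1.74%, and its SD of 0.0250 on the log2(TPM + 1) scale lay among the lowest 5% of rows at 1 TPM or more. In the order of levels, 10 of 26 neighbouring pairs of hallmark genes had ranges that did not overlap. HNRNPH1, an RNA-binding protein mutated in some cases, stood at 907, 1012 and 861 TPM, below CCND1 in every library. STMN1, which destabilises microtubules, stood at 740.2, 979 and 718 TPM, and the growth regulator MYC at 714, 758 and 682 TPM. The range of STMN1 overlapped those of both HNRNPH1 and MYC. The cyclin D partner CDK4 stood at 322, 395 and 325 TPM, while its relative CDK6 stood at 5.14, 3.13 and 4.66 TPM.

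The other D-type cyclins were far lower. CCND2 was listed at 0 in all 3 libraries, and CCND3 stood at 15.1, 30.4 and 15.05 TPM, its replicate 2 value being the high one. The CDK4 inhibitors CDKN2A and CDKN2B were listed at 0 in all 3. CDKN1B, which inhibits CDK2 complexes, stood at 148, 139.9 and 156 TPM and the pocket protein RB1, which CDK4 phosphorylates, at 40.2, 73.2 and 50.3 TPM. RB1 was highest in replicate 2. The ubiquitin ligase MDM2 stood at 20.6, 16.8 and 14.4 TPM and the DNA damage kinase ATM, often mutated in this disease, at 5.77, 5.47 and 7.21 TPM. MDM2 lay above ATM in every library.

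Chromatin regulators mutated in this lymphoma were present throughout. SMARCA4, the ATPase of BAF remodelling complexes, stood at 207, 195 and 184 TPM, NSD2, which dimethylates lysine 36 of histone H3, at 112, 95.7 and 114 TPM, and KMT2D, an H3 lysine 4 methyltransferase, at 23.02, 23.7 and 19.7 TPM. This order held in each library. MEF2B, a B cell transcription factor mutated in a subset of cases, stood at 326, 75.8 and 164 TPM and was the most variable hallmark gene, more than 4 times higher in replicate 1 than in replicate 2. NOTCH2 stood at 30.7, 43.97 and 33.1 TPM and NOTCH1, the receptor more often mutated in this disease, at 5.698, 7.13 and 6.55 TPM. NOTCH2 was the higher in each library.

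**Figure D3:**
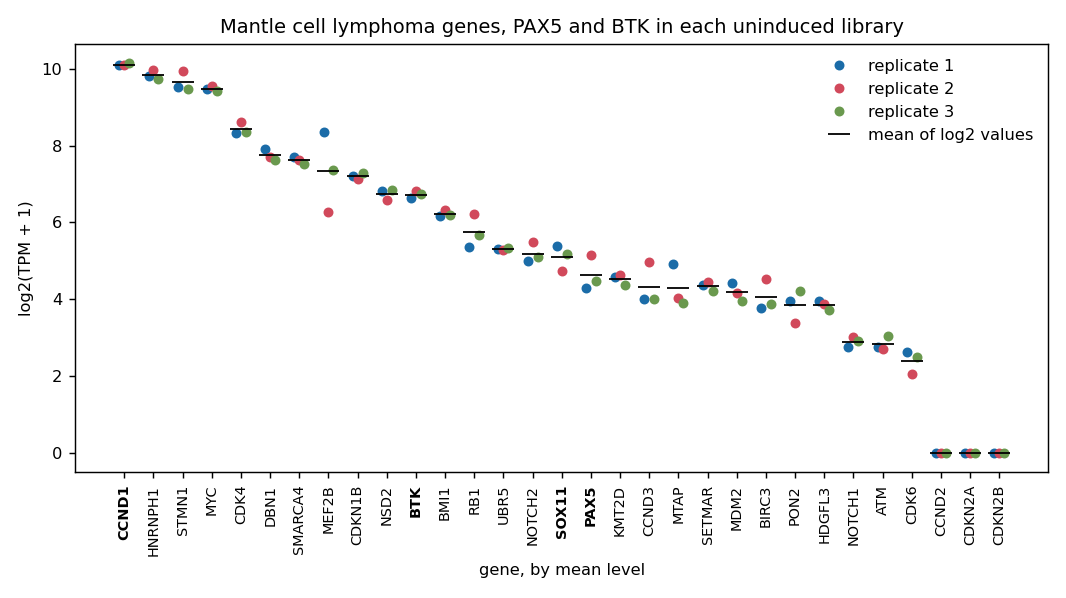
Level as log2(TPM + 1) (y axis) of 29 mantle cell lymphoma genes, PAX5 and BTK (x axis, ordered by mean), 1 coloured dot for each library and a black bar for the mean of the log2 values. CCND1 is the highest and its dots coincide, MEF2B spreads widest, and CCND2, CDKN2A and CDKN2B sit at 0.

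The genes beside CCND1 did not share its level. Of the 5 nearest protein-coding genes before it on chromosome 11, TPCN2, an endolysosomal cation channel, stood at 23.001, 26.3 and 26.2 TPM, MRGPRF and SMIM38 had means of 0.177 and 0.279 TPM, and MRGPRD and MYEOV were listed at 0. Of the 5 nearest after it, LTO1, a factor for iron-sulfur protein assembly, stood at 21.7, 20.4 and 18.2 TPM, and FGF19, FGF4, FGF3 and ANO1 were listed at 0. The nearest genes on either side, MYEOV and LTO1, were thus at 0 and at a mean of 20.1 TPM. Around CDKN2A on chromosome 9 the picture was emptier: 9 of 10 neighbours were listed at 0, among them CDKN2B, DMRTA1, ELAVL2, TUSC1, IFNE and 3 interferon alpha genes. The exception was MTAP, a methionine salvage enzyme that lies next to CDKN2A, at 29.3, 15.3 and 13.9 TPM. It was highest in replicate 1. Genome copy number was not measured here.

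The cells expressed 1 dominant light chain V row and an IgM heavy chain. IGHM, the mu constant region, stood at 4094, 3759.96 and 3488 TPM, and IGHD, the delta constant region made by alternative splicing of the same transcript, at 305, 396 and 323 TPM. The switched constant regions of IgG, IgA and IgE were at a mean below 1 TPM or, for IGHE, listed at 0. IGLV1-51 stood at 5303, 3243 and 3359 TPM, highest in replicate 1, and made up 96.5%, 95.8% and 95.9% of the TPM of all 57 lambda V rows. The lambda constant rows IGLC2, IGLC1 and IGLC3 had means of 910.1 ± 50.1 TPM, 807 ± 221 TPM and 746 ± 54.8 TPM. These are near-identical to each other, and IGLC1 overlaps IGLL5 at 2566 ± 509 TPM, so the split between rows is uncertain.

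The kappa locus was transcribed without a V row. IGKC, the kappa constant region, stood at 1876, 1876 and 2002 TPM, within a narrow range, and the joining segment row IGKJ1 at 2395, 2154 and 2530.3 TPM. None of 103 kappa V rows reached a mean of 1 TPM, and 92 were listed at 0. The sum over all of them was 1.46, 2.71 and 4.76 TPM in the 3 libraries. Heavy chain V rows were lower than the lambda V row and more spread out. IGHV1-2 stood at 134, 136 and 118 TPM and IGHV1OR15-1, an orphan copy of that family on chromosome 15, at 112, 136 and 117 TPM. IGHV1-24, IGHV5-78 and IGHV1-46 followed with means of 46.6, 25.7 and 18.8 TPM, and IGLV1-41 and IGLV6-57 with 143 and 13.03. All heavy chain V rows summed to 379, 405 and 338 TPM, well under IGHM. Mutated V segments can lose reads to related rows, which was not tested. IGHV1-69 was at 25.7, 0 and 0 TPM and its near-identical copy IGHV1-69D at 0, 25.3 and 0 TPM, so the signal sat on 1 row in replicate 1, on the other in replicate 2 and on neither in replicate 3.

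JCHAIN, which joins IgM pentamers, was among the top 100 rows at 2013, 2057 and 2132 TPM. Its neighbours in function were uneven. The plasma cell chaperone MZB1 stood at 548, 291 and 461 TPM, the secretory factor XBP1 at 185, 88.2 and 121 TPM, and PRDM1, the repressor that ends the B cell programme, at 17.1, 5.94 and 9.07 TPM. All 3 were highest in replicate 1 and lowest in replicate 2, as was SDC1, the plasma cell surface proteoglycan CD138, at 49.8, 16.3 and 32.8 TPM. Other members went otherwise: TNFRSF17, the plasma cell receptor BCMA, stood at 77.6, 84.04 and 70.4 TPM, and DERL3, a degradation factor of the endoplasmic reticulum, at 26.7, 16.2 and 29.4 TPM. The germinal centre genes LMO2, RGS13 and SERPINA9 were listed at 0, and BCL6, the repressor that maintains the germinal centre, had 0.551, 1.03 and 0.229 TPM. Of 21 germinal centre and plasma cell genes, 14 reached 1 TPM, led by JCHAIN, MZB1 and FKBP11, and 7 did not. Of those 14, replicate 1 was the highest library in 8 and replicate 2 the lowest in 8, against 32.1% and 33.1% of the 14507 rows with a mean of at least 1 TPM.

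Of 27 B cell transcription factors, 26 reached a mean of 1 TPM. TCF3, the E protein that opens the B lineage programme, was highest at 472, 445 and 473 TPM, and its antagonist ID3 stood at 115, 194 and 176 TPM. IRF4, needed for plasma cell fate, stood at 268, 189 and 235 TPM and MYB, a progenitor factor, at 114, 122 and 129 TPM. TCF3 lay above IRF4 without overlap, 1 of 4 such gaps among 25 neighbouring pairs. The lineage factors IKZF1 and POU2AF1, the latter the B cell coactivator of OCT2, stood at 69.8, 94.5 and 79.2 TPM and 49.1, 73.7 and 67.3 TPM. EBF1, which acts with PAX5 to fix B cell identity, stood at 15.9, 30.3 and 19.4 TPM, and SPIB at 27.6, 55.2 and 25.3 TPM. PAX5, EBF1 and SPIB were each highest in replicate 2, as were 15 of the 26, against 40.8% of all rows at 1 TPM or more. The lowest were BACH2 at 5.07 ± 1.21 TPM, FOXO1 at 4.599 ± 0.563 TPM, BCL11A at 2.67 ± 0.735 TPM and BCL6.

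B cell surface molecules were split, 27 of 40 at 1 TPM or more and 13 below. After CD74, the highest were CD81, a tetraspanin, at 454, 503 and 658 TPM, and the homing receptor CXCR4 at 359, 575 and 484 TPM. The signalling chains of the B cell receptor, CD79A and CD79B, stood at 358, 381 and 296 TPM and 140.4, 185 and 155 TPM, and CD79A was the higher in each library. MS4A1, the antibody target CD20, stood at 153, 323 and 259 TPM. CD22, an inhibitory co-receptor, stood at 5.803, 16.2 and 12.3 TPM. MS4A1 and CD22 were lowest in replicate 1 and highest in replicate 2. Of the 27 molecules at 1 TPM or more, 14 were lowest in replicate 1 and 17 highest in replicate 2, against 33.2% and 40.8% of all rows. CD5, a T cell molecule that most mantle cell lymphomas carry, was listed at 0, as were CR2, MME, IL2RA, CD200, CD82 and CR1. CD24 stood at 6.47, 4.89 and 7.55 TPM, ROR1 at 1.33, 2.11 and 2.16 TPM and CXCR5 at 0.486, 0.911 and 0.686 TPM. FCER2, the IgE receptor CD23, usually scarce in this lymphoma, stood at 34.2, 12.4 and 22.8 TPM.

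Of 14 progenitor and precursor B cell genes, 9 were below 1 TPM and 5 were not. RAG2, CD34, FLT3, KIT, IL7R and ERG were listed at 0, and RAG1, VPREB1 and DNTT had means below 1 TPM. IGLL1, the surrogate light chain gene, was the highest at 765, 631 and 1087 TPM, with replicate 3 above the others. It resembles the lambda joining and constant rows in sequence, and how far reads were shared was not tested. The others at 1 TPM or more were VPREB3, the surface glycoprotein gene CD99 at 105, 81.1 and 90.7 TPM, the transcription factor SOX4 at 37.7, 41.4 and 45.4 TPM and the DNA ligase LIG4 at 9.55, 7.79 and 10.4 TPM.

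The chain from the B cell receptor to NF-kB was present with a few gaps. Of 28 B cell receptor signalling genes, 24 reached 1 TPM and 21 reached 10. The adaptor GRB2 stood at 121, 129.7 and 108 TPM and BTK, the target of ibrutinib, at 105 ± 6.81 TPM. Upstream of BTK, the kinase SYK stood at 24.6, 35.9 and 29.4 TPM, LYN at 14.98, 19.2 and 18.1 TPM and BLK at 33.6, 52.8 and 48.5 TPM. Downstream, the phospholipase PLCG2 stood at 40.4, 47.3 and 46.7 TPM. The PI3K subunit PIK3CD stood at 75.3, 121 and 98.1 TPM. SYK, LYN, BLK, PLCG2 and PIK3CD were lowest in replicate 1 and highest in replicate 2. Over the 24 genes at 1 TPM or more, 14 were lowest in replicate 1 and 16 highest in replicate 2, against 33.2% and 40.8% of all rows, while CSK, BANK1, FYN, VAV1 and SH3BP5 were highest in replicate 1. The protein kinase C gene PRKCB, which acts after PLCG2 on the way to NF-kB, had 0.572, 0.8397 and 0.668 TPM, under 1 TPM in each library, and the T cell kinase ZAP70 was listed at 0. Of 19 NF-kB subunits and regulators, 17 reached 1 TPM. NFKB2, of the alternative pathway, stood at 176, 194 and 178 TPM, NFKB1, of the classical pathway, at 29.4, 43.7 and 35.8 TPM, and NFKBIA, the inhibitor that NF-kB itself induces, at 106, 162 and 122 TPM. NFKB2 lay above NFKB1 in every library. REL stood at 1.59, 1.85 and 3.65 TPM and TNF was listed at 0.

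All 16 HLA class II genes and regulators exceeded 10 TPM. HLA-DRA, the invariant alpha chain of HLA-DR, stood at 2128, 2767 and 2551 TPM, HLA-DPA1 at 669, 685 and 633 TPM and the peptide editor HLA-DMA at 193, 277 and 229.8 TPM. Their master activator CIITA stood at 52.2, 64.8 and 64.1 TPM. Replicate 1 was the lowest library for 12 of 16 and replicate 2 the highest for 11, against 33.2% and 40.8% of all rows. Of 13 class I and peptide loading genes, replicate 1 was the lowest for 7 and replicate 2 the highest for 6 and the lowest for 5. Among them were HLA-B at 1724, 1539 and 1717 TPM and the common subunit B2M at 2122, 2084 and 2239 TPM. HLA-B and B2M were lowest in replicate 2.

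**Figure D4:**
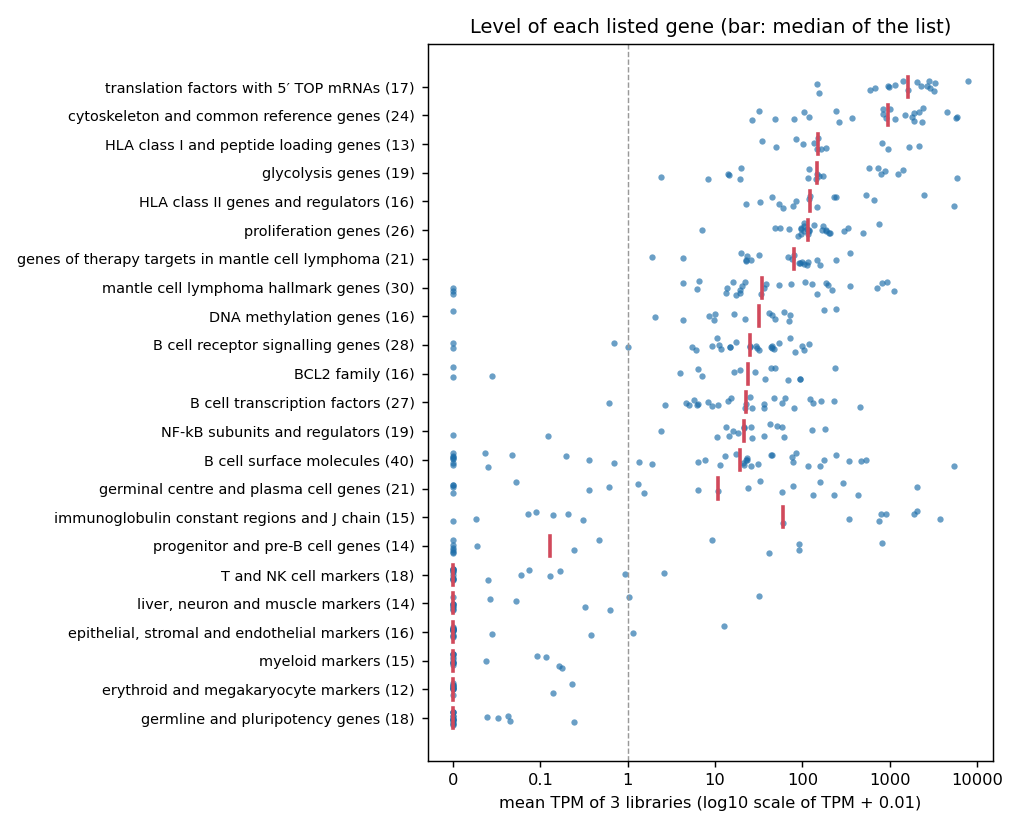
Mean TPM over the 3 libraries of every listed gene (x axis, log10 of TPM + 0.01, with 0 at the left end), 1 blue dot for each gene and 1 line of dots for each list with its number of members, red bars at list medians and a dashed line at 1 TPM. Translation factors lie near 1642 TPM by median, B cell surface, transcription factor and receptor signalling lists between 19.2 and 25.2, and markers of other tissues at 0.

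Of 26 proliferation genes, 25 reached 10 TPM and 18 reached 100. The replication helicase subunit MCM7 stood at 686, 841 and 755 TPM, the sliding clamp PCNA at 462, 535 and 472 TPM and the mitotic kinase AURKB at 189, 183 and 193 TPM. MKI67, the clinical proliferation marker, stood at 81.9, 107 and 79.4 TPM and CCNE1, the G1/S cyclin E, was lowest at 8.14, 6.23 and 7.06 TPM. Replicate 1 was the lowest library for 18 of 26 and replicate 2 the highest for 20, against 33.2% and 40.8% of all rows.

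Of 16 DNA methylation genes, 15 reached 1 TPM. The maintenance enzyme DNMT1 stood at 183, 183 and 165 TPM against 10.1, 9.71 and 10.4 TPM for the targeted de novo enzyme DNMT3A and 8.17, 8.38 and 8.76 TPM for its relative DNMT3B. DNMT3A lay above DNMT3B in each library, though both were near 10 TPM, and their cofactor DNMT3L was listed at 0. Among the demethylating enzymes, TET3 stood at 9.94, 10.7 and 8.42 TPM, TET2 at 4.22, 4.47 and 4.03 TPM and TET1 at 2.42, 1.74 and 1.92 TPM, and this order held in every library. IDH2, the mitochondrial isocitrate dehydrogenase, was the highest of the list at 259, 229 and 244 TPM.

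In the BCL2 family, which decides between survival and apoptosis, the highest gene was PMAIP1, the BH3-only protein NOXA, at 299, 182 and 229 TPM. The effector BAX stood at 96.3, 95.4 and 92.7 TPM. Among survival proteins MCL1 stood at 83.1, 105 and 96.1 TPM, BCL2, the target of venetoclax, at 72.9, 60.8 and 69.6 TPM and BCL2L1 at 44.9, 43.1 and 44.1 TPM. MCL1 was above BCL2 and BCL2 above BCL2L1 in each library. BCL2A1 and BOK were listed at 0, and BCL2L11, the BH3-only protein BIM, had 0, 0.0261 and 0.0273 TPM. Its neighbours on chromosome 2, named after that value was seen, were not silent as a group: BUB1 had a mean of 289 TPM and ANAPC1 of 23.9, though ACOXL, next to BCL2L11, had 0.111.

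All 21 genes of therapy targets in this lymphoma reached 1 TPM, and 19 reached 10. After CDK4, MS4A1 and CD79B, the list was led by EZH2, the H3 lysine 27 methyltransferase, at 125, 163 and 149.8 TPM, the proteasome subunit PSMB5 at 118, 118 and 109 TPM and the nuclear exporter XPO1 at 89.6, 139 and 109.5 TPM. CRBN, the ligase subunit bound by lenalidomide, stood at 16.3, 20.8 and 21.6 TPM. ROR1 and CDK6 were the lowest. Replicate 1 was the lowest library for 15 of 21, against 33.2% of all rows.

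Markers of other cell types were mostly at or near 0. Over all rows, 56.7% were listed at 0 and 23.9% reached a mean of 1 TPM. Over protein-coding rows, the shares were 30.7% and 55.0%. Of 18 T and NK cell markers, 11 were listed at 0, including CD2, CD3D, CD4, TRAC, TRBC1 and TRBC2, and their summed level was 2.83, 4.40 and 4.57 TPM in replicates 1, 2 and 3. The 1 marker over 1 TPM was PRF1, the pore protein perforin, at 1.85, 3.15 and 2.81 TPM. Myeloid markers summed to 0.204, 0.938 and 0.418 TPM, with 10 of 15 listed at 0, among them CSF1R, MPO, S100A8 and S100A9. Erythroid and megakaryocyte markers summed to at most 0.433 TPM, and HBB, HBA1 and GATA1 were listed at 0. Of 16 epithelial, stromal and endothelial markers, 12 were listed at 0, including EPCAM, KRT8, KRT18, COL1A2, COL3A1 and VWF. The 2 over 1 TPM were the collagen gene COL1A1 at 10.3, 16.1 and 11.2 TPM and PECAM1, the endothelial and leukocyte adhesion molecule CD31, at 1.17, 1.44 and 0.827 TPM. Of 18 germline and pluripotency genes, 13 were listed at 0 and the rest stayed under 1 TPM. Among liver, neuron and muscle markers, 8 of 14 were listed at 0, near the share over all rows, and 2 reached 1 TPM. MBP, a myelin gene whose locus is also used in immune cells, was the highest at 25.6, 36.1 and 34.2 TPM. The other was the actin gene ACTA1, below MBP in every library.

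Several families of tissue genes were listed at 0 in all or most of their rows, against 56.7% of all rows and 30.7% of protein-coding rows. Of 406 olfactory receptors, 377 (92.9%) were listed at 0 and none reached 1 TPM. All 44 beta-defensins and all 13 interferon alpha genes were listed at 0. Of 162 keratins and keratin-associated proteins, 154 were listed at 0, and 1 reached 1 TPM, KRT10, with a mean of 3.63 TPM. Of 142 T cell receptor V and C rows, 135 were listed at 0 and none reached 1 TPM. HOX genes, which give cells a position along the body, were nearer the shares over all rows than those over protein-coding rows. Of 39, 20 were listed at 0 and 11 reached 1 TPM. These shares were 56.7% and 23.9% of all rows, and 30.7% and 55.0% of protein-coding rows. HOXB3 stood at 23.95, 20.2 and 23.9 TPM and HOXB4 at 15.7, 15.4 and 13.5 TPM, the same pair in the same order in each library. Commonly used genes were not at 0: of 24 cytoskeleton and common reference genes 0 were listed at 0, the lowest being TBP, a subunit of the general transcription factor TFIID, at 27.4, 26.6 and 25.1 TPM.

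For mitochondrial DNA a level of 0 cannot be read as silence. Its protein-coding genes, 13 in number, were all listed at 0, while nuclear copies of them took 0.802%, 1.09% and 0.834% of TPM. MTCO1P12, a copy of the cytochrome oxidase subunit gene, stood at 2768, 3933 and 2990.2 TPM, and MTATP6P1, a copy of an ATP synthase subunit gene, at 2066, 3117 and 2238 TPM. Both were highest in replicate 2. Whether these reads came from mitochondria was not tested.

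Rows matched to no biotype took 5.37% of TPM, and how much of this was noncoding RNA was not tested. Rows matched to long noncoding RNAs took 1.04% of TPM. GAS5, a host of small nucleolar RNAs, was the highest at 1128, 1044 and 1445 TPM, followed by SNHG29 at 1052, 831 and 1029 TPM and SNHG5 at 743, 534 and 1073 TPM. All of the 8 most abundant were GAS5, ZFAS1 or small nucleolar RNA host genes (SNHG). MALAT1, a nuclear RNA abundant in most cells, stood at 172, 127 and 184 TPM. The highest microRNA row was MIR1244-2 at 1934, 2390.3 and 1940.4 TPM. A poly(A) library is not made to capture mature microRNA, so the value is that of the annotated row only.

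The libraries differed by a median SD of 0.195 on the log2(TPM + 1) scale over 14507 rows. The median was 0.128 over 84 of the ribosomal protein rows and 0.136 over rows at 1000 TPM or more. The SD was under 0.489 for 90% of rows and over 1.43 for 1%. Of 8427 rows with a mean of at least 10 TPM, 350 (4.15%) varied at least 2-fold between the highest and the lowest library. Replicate 2 was the library farthest from the mean in 169 of those 350 rows (48.3%), near its share of 44.2% over all 8427, replicate 1 in 119 (34%) and replicate 3 in 62 (17.7%). Without replicate 2 the count fell to 126, without replicate 1 to 163, and without replicate 3 to 246; by construction a pair of libraries cannot span more than all 3.

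Several of the widest differences fell on rows that share sequence with others. RPL17-C18orf32, a readthrough of a ribosomal protein gene, stood at 2.803, 427 and 584 TPM. The sum of its row with RPL17 and C18orf32 was 3137, 2463 and 2905 TPM. The SD on the log2 scale was 0.178 for the sum, 0.315 for RPL17 alone and 4.07 for the readthrough row alone. RPL17, with a mean of 2489 TPM, made up most of the sum, so a small SD of the sum was nearly given in advance. One of 2 rows for MATR3, an RNA-binding nuclear matrix protein, stood at 73.3, 123 and 2.65 TPM, and both rows together at 178, 232 and 163 TPM. RNASEK-C17orf49 stood at 105, 134 and 14.1 TPM and C17orf49 at 94.6, 22.3 and 151 TPM. Their sum with RNASEK was 314, 221 and 374 TPM, lowest in replicate 2. These sums were added after the rows had been seen. Of the 12 most variable named rows with a mean of at least 50 TPM, these 4 were summed in this way. Whether the others of the 12 share reads with overlapping or related rows was not tested.

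CHMP4A, of the membrane-cutting ESCRT-III complex, stood at 108, 23.8 and 84.1 TPM. ASS1, which makes argininosuccinate from citrulline, stood at 230.5, 29.3 and 110.4 TPM. The stress factor DDIT3, or CHOP, stood at 148, 35.3 and 114 TPM and the pseudokinase TRIB3, its target, at 163, 41.5 and 116 TPM. These, with MEF2B, shared an order of replicate 1 highest and replicate 2 lowest. POLR2F, a subunit shared by RNA polymerases, stood at 137, 172 and 44.7 TPM, the joining segment IGHJ4 at 23.9, 91.8 and 75.7 TPM and SSBP2, a single-stranded DNA-binding protein, at 26.5, 77.5 and 103 TPM, with replicate 3 lowest for the first and replicate 1 for the others. The steadiest rows with a mean of at least 50 TPM were BLMH, the bleomycin hydrolase, at 90.4, 90.2 and 89.9 TPM, the calcium channel gene ORAI2 at 59.4, 59.2 and 58.98 TPM, and the phosphatase subunit PPP4C at 126, 126 and 125 TPM. DYNLT1, RPL39P15, RBM26, RPL21 and NINJ1 followed, with an SD of at most 0.0114 on the log2 scale.

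Gene groups differed together between the libraries. Of the 14507 rows with a mean of at least 1 TPM, replicate 2 was the highest library in 40.8% and the lowest in 33.1%, and replicate 1 the highest in 32.1% and the lowest in 33.2%. Of 19 glycolysis genes it was the highest in 17. LDHA, which makes lactate, stood at 443, 896 and 392 TPM, the pyruvate kinase PKM at 554, 1090.4 and 589 TPM, the enolase ENO1 at 1071, 1709 and 969 TPM and the glucose transporter SLC2A1 at 13.8, 32.5 and 13.5 TPM. Replicates 1 and 3 differed by a median of 0.0672 on the log2 scale over the list. Over the list, replicate 2 exceeded the mean of the others by a median of 0.675 on the log2 scale, against 0.0347 over all rows. PFKL at 149, 136 and 143 TPM and HK1 at 13.1, 14.6 and 15.5 TPM were the exceptions.

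The stress genes seen among the most variable rows led to 6 further lists, drawn up after the libraries had been seen. Of 35 genes with a mean of at least 1 TPM in the list of the amino acid response factor ATF4 and its targets, replicate 1 was the highest library in 31, against 32.1% of all rows, and replicate 2 the lowest in 31. The list holds ATF4 itself and the genes DDIT3, TRIB3 and ASS1 that led to it, and without these 4 both counts were 27 of 31. ATF4 stood at 652, 352 and 485 TPM, the asparagine synthetase ASNS at 200.2, 88.2 and 139 TPM, the glutathione-degrading enzyme CHAC1 at 32.6, 2.41 and 14.03 TPM and the mTORC1 inhibitor SESN2 at 37.3, 7.43 and 21.2 TPM. ALDH18A1, at 82.7, 102 and 80.01 TPM, was the member highest in replicate 2. Chaperones of the endoplasmic reticulum had the same order, with replicate 1 the highest in 16 of 17 and replicate 2 the lowest in 13. HSPA5 stood at 294, 192 and 205 TPM, and HERPUD1, a degradation factor of the same organelle, at 139, 56.2 and 93.8 TPM. Heat shock proteins and co-chaperones of the cytosol and mitochondria ran the other way: replicate 2 was the highest in 12 of 12, with HSPA8 at 750.3, 1264 and 794 TPM and HSPH1 at 68.5, 139 and 70.6 TPM.

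Cholesterol synthesis genes were highest in replicate 2 in 19 of 22 cases, as SQLE, the squalene epoxidase, at 18.7, 33.2 and 16.96 TPM, and HMGCS1, an early enzyme, at 21.9, 33.3 and 16.6 TPM. Genes known to be induced in low oxygen were highest there in 16 of 22, with BNIP3, a mitophagy receptor, at 24.8, 43.2 and 25.4 TPM and ANKRD37 at 6.57, 33.2 and 8.02 TPM, though VEGFA was highest in replicate 1 at 57.6, 30.8 and 27.05 TPM. Iron storage and oxidative stress genes were highest in replicate 1 in 10 of 14, among them the ferritin chains FTH1 at 1886, 592 and 704 TPM and FTL at 2949, 1249 and 1591 TPM. After each library was scaled by its median ratio to the mean, replicate 2 was the highest for 17 of 19 glycolysis genes and the lowest for 31 of the 35 genes of the ATF4 list, counted anew on the scaled values. Over all rows it was then the highest in 36.6% and the lowest in 37.0%. It was the highest for 14 of 24 B cell receptor signalling genes and 10 of 16 HLA class II genes, fewer than before scaling. The counts of 17 of 27 B cell surface molecules and 15 of 26 B cell transcription factors stayed. On the values as deposited, the B cell receptor signalling list shifted less than glycolysis, by a median of 0.189 for replicate 2 against the others. Vial, day and library preparation cannot be told apart with 1 library for each.

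**Figure D5:**
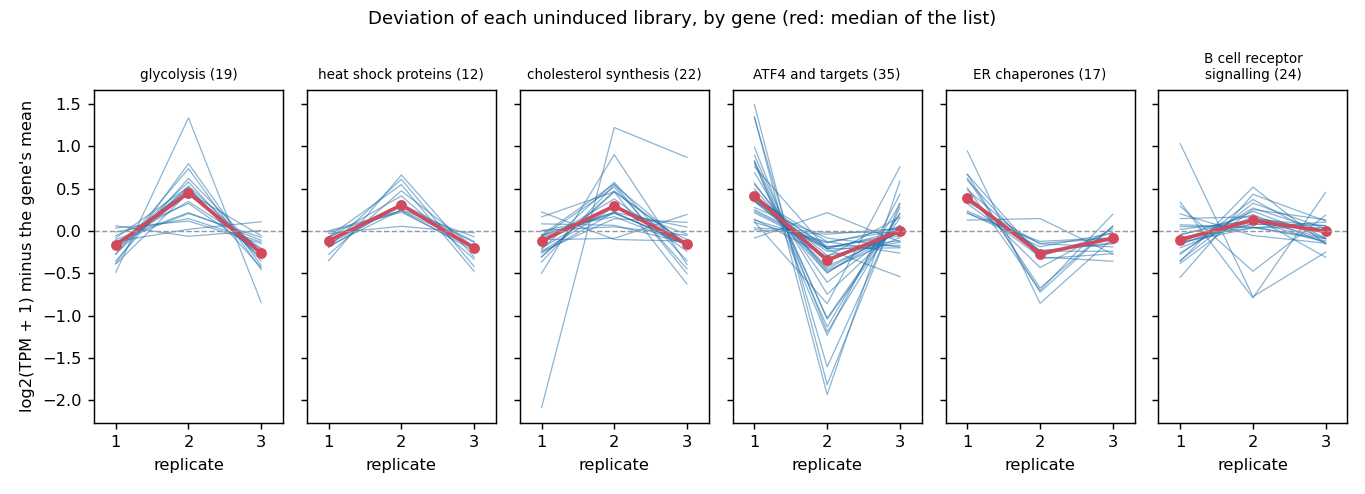
Log2(TPM + 1) of each gene minus its mean over the 3 libraries (y axis) by replicate (x axis), in 6 panels for gene lists, with 1 thin line for each gene at 1 TPM or more (number in brackets) and red dots for the list's median. Glycolysis, heat shock and cholesterol genes peak in replicate 2 by median, ATF4 with its targets and endoplasmic reticulum (ER) chaperones fall to their lowest there, and B cell receptor genes shift least.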

How the data were processed

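Gene expression was read from 1 deposited table of 60656 rows and 59608 symbols, in which the authors give TPM, normalized to a total of 1000000 in each library. Per the submitters' processing notes, which name no roles, the tools included HISAT2 2.1 and StringTie 1.3.4, and the build was hg38. Annotation release and strand setting: not given in the sources used here. Depth is unknown, so no counting interval is given, and a 0 may be a failed estimate. The 3 uninduced columns were matched to samples by replicate number; the 6 induced columns of the table were not used here. Replicates are separate vials of 1 clone, so the spread covers culture and library preparation together.

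Values were used as deposited, and where several rows shared 1 symbol (1168 rows), the one with the highest mean stood for a listed gene. Spread is the SD of log2(TPM + 1), computed with Python 3.11.15, pandas and numpy and tested on simulated data. With 1 group, no test was made. A row counted as expressed at a mean of 1 TPM. RefSeq biotypes matched 62.3% of rows by symbol, and 86.3% of those at 1 TPM or more. Promoters were RefSeq's, from 250 bases before to 50 after the first listed start.

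Named genes were the 30 highest rows, the markers, list members (the highest and lowest, and those at 0), the 12 most and 8 least variable rows with a mean of at least 50 TPM, neighbours of CCND1 and CDKN2A, and immunoglobulin V rows at 10 TPM or more. A few list members are counted but not reported by name here. Genes that serve as examples outside this rule were chosen after their values were seen. The members and lists were chosen with earlier results of these data known, among them the separate position of replicate 2, which is therefore no independent support. Alternatives were other minima and pseudocounts, summed symbols, rescaling and leaving out each library.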

Additional observations from a re-analysis of the deposited data

How the results depend on the processing

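Of 57 alternative values, 47 stayed within 1 SD between libraries or, for counts, within 1.5 times. The levels of CCND1, BTK, SOX11 and PAX5 and the counts of rows expressed and listed at 0 were among these, under every alternative run. With 1 library left out, the levels of these genes could not move by 1 SD, by construction. Summing symbols left those levels unchanged, so only the rescaling could have moved them. The 14507 rows expressed became 21066 at a minimum mean of 0.1 TPM and 10520 at 5 TPM. The share of TPM in the top 100 rows was 27.2% with ribosomal proteins left out, against 34.6%. The median spread of 0.195 became 0.167 with no filter, and 0.133 to 0.178 with 1 library left out, the lowest without replicate 2. The 350 rows varying 2-fold became 1241 at a minimum mean of 1 TPM, 70 at 50 TPM, and 126 to 246 with 1 library left out. The share of start-site pyrimidine tracts at 1000 TPM or more, 51.5%, was 57.7% with any listed start and 27.5% without ribosomal proteins; these alternatives and a protein-coding filter on the spread were chosen after seeing the data. No paired analysis was possible because only 1 group was described. Results rest on 3 libraries of 1 clone with unknown depth, so low levels carry an error that cannot be stated, and near-identical copies share reads in an unknown way.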

Other observations

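Some rows of appreciable level were listed at 0 in some of the libraries. Of the 8427 rows with a mean of at least 10 TPM, 15 held a 0 in at least 1 of the 3 libraries. Among those with ordinary symbols, NPIPA2 stood at 36.1, 0 and 29.1 TPM in replicates 1, 2 and 3 and NPIPA3 at 24.9, 20.3 and 0 TPM; both belong to a family of near-identical duplicated genes on chromosome 16. The HLA class I pseudogene HLA-K stood at 25.1, 19.5 and 0 TPM, the tubulin pseudogene TUBB2BP1 at 39.1, 0 and 0 TPM, and EEF1GP1, a pseudogene of an elongation factor subunit, at 0, 14.9 and 17.9 TPM. Each has close relatives elsewhere in the genome, and how reads were assigned between them was not tested.

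Among 27 bitter and sweet taste receptor rows, 4 reached a mean of 1 TPM and 12 were listed at 0. Of 52 rows of the clustered protocadherins, neuronal adhesion genes, 3 reached 1 TPM and 19 were listed at 0. Over all rows, 23.9% reached 1 TPM and 56.7% were listed at 0. Over protein-coding rows, the shares were 55.0% and 30.7%.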
